A study of Mus musculus with 8 samples.

Results

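The HSP70 chaperones and heat shock factors were followed as 10 genes, listed by name with earlier results of these data known: Hspa1a, Hspa1b, Hspa2, Hspa4, Hspa4l, Hspa8, Hspa9, Hsph1, Hsf1 and Hsf2. They were found by symbol among the 46983 genes of the deposited count table, and all 10 were abundant enough to be among the 15175 genes tested. The RNA came from B cells of WT mice that were taken out of the bone marrow by magnetic sorting (MACS), and hypoxia is the stress given for all 8 libraries. The 4 Estrogen libraries came from cells treated with estrogen and the 4 Vehicle libraries from cells given the vehicle alone, and the comparison asked which genes estrogen changes in these cells. No library of cells kept without hypoxia was in the comparison, so every value below belongs to the hypoxic state.

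HSP70 proteins are ATP-driven chaperones that bind exposed hydrophobic stretches of unfolded proteins, let them refold, or hand them on for degradation. J-domain proteins deliver the client and switch on ATP hydrolysis, and exchange factors of the HSP110 and BAG families release ADP and the client. Heat shock factors are the transcription factors of this system: under protein stress HSF1 forms trimers on heat shock elements, inverted repeats of the unit GAA, and raises the inducible chaperones, while free HSP70 holds it back.

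The libraries held 30181834 to 39088597 reads, and 3 reads, taken as the detection floor, corresponded to 0.078 to 0.102 CPM (reads per 1000000 after TMM scaling, the unit of all levels below). The floor covers counting error only, while the intervals of differences below also hold the spread between libraries. All 8 B lineage genes examined were detected, with Pax5, the transcription factor that commits cells to the lineage, at 725 to 1025 CPM in Estrogen and 843 to 1155 CPM in Vehicle. The summed level of these 8 genes spread from 5666 to 9912 CPM in Estrogen and from 6886 to 11548 CPM in Vehicle, and that of 7 neutrophil genes from 3130 to 8984 CPM in Estrogen and from 3056 to 8575 CPM in Vehicle. Vehicle 3 stood apart by sex-linked genes, with the Y-linked Ddx3y at 99.6 CPM and Xist at 2.39 CPM, against 470 CPM or more of Xist in each other library. In bulk RNA, fewer cells of a type and less RNA per cell cannot be told apart. The sex-linked RNA of Vehicle 3 sets its source of cells apart from that of the other libraries. Whether those others stem from different animals or cultures is not stated. The p-values therefore measure only the spread among these 8 libraries, of which an unknown part may be technical.

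Hspa1a and Hspa1b encode the stress-inducible cytosolic HSP70 and lie side by side on the minus strand of chromosome 17, each with a single exon (GRCm38; Hspa1a at chr17:34969190-34972156 and Hspa1b at chr17:34956436-34959238). Their promoters are shown because they hold a match, called the heat shock element below, to the short form searched for heat shock factors. They are also nearly the same sequence. The 130 bases just before each RefSeq start site (GRCm38.p6, minus strand, chr17:34972157-34972286 for Hspa1a and chr17:34959239-34959368 for Hspa1b) were, with the heat shock element in capitals:
Hspa1a: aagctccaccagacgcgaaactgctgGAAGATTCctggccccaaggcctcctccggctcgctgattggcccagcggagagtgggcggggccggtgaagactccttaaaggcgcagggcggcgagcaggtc
Hspa1b: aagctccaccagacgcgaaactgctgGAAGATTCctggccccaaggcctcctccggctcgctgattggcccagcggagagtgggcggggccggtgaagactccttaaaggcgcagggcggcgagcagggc
The element began 104 bases before the start site in both genes. Over the 250 bases before the start, 247 were identical between the genes (98.8%), and within the 130 bases shown only 1 differed.

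The element was searched on both strands as GAANNTTC or TTCNNGAA, each of which reads the same on either strand, in the 250 bases before the start site. Of 32851 mouse promoters in the RefSeq table, 12.8% held at least 1 of these forms. Among the 7 members whose entries were used, Hspa1a, Hspa1b and Hsph1 held 1 match each, and Hspa2, Hspa4, Hspa4l and Hsf2 held none in this window. The promoters of Hspa8, Hspa9 and Hsf1 were not searched. A run of 3 units, GAANNTTCNNGAA or TTCNNGAANNTTC, whose first 8 letters are one of the shorter forms, stood in 0.466% of all promoters and in none of the members searched. The palindromic estrogen response element GGTCANNNTGACC stood in 0.0639% of promoters and in none of the members searched, while 1 arm of it alone (GGTCA or TGACC, present in 35.2% of promoters) was found in each of Hsph1 and Hspa2. These matches are letters in a window and not measured binding.

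The coding sequences of Hspa1a and Hspa1b aligned over 1923 bases and differed at 8 of them, an identity of 99.58% beside 3 gap bases. A stretch of 638 bases in a row was the same in both. The part shown, bases 1357 to 1416 counted from the first base of the start codon (GENCODE release M21, sense strand), holds 2 of the differing positions, which are in capitals:
Hspa1a coding: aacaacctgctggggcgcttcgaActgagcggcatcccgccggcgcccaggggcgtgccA
Hspa1b coding: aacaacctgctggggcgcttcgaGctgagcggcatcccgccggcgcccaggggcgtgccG
Within the coding sequence, a read that holds none of the differing or gap positions fits both genes. Of the 50-base windows inside the Hspa1a coding sequence, 1545 of 1874 (82.4%) also occurred in Hspa1b, and of the 764 windows that lie after the coding sequence none did. Hspa1a and Hspa1b shared no window with Hspa8, whose coding sequence was 74.5% identical to that of Hspa1a. Hspa1a is also overlapped by Gm20481 on the opposite strand, and since strand is not stated for the counts, reads of this pair cannot be told apart.

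**Figure D1:**
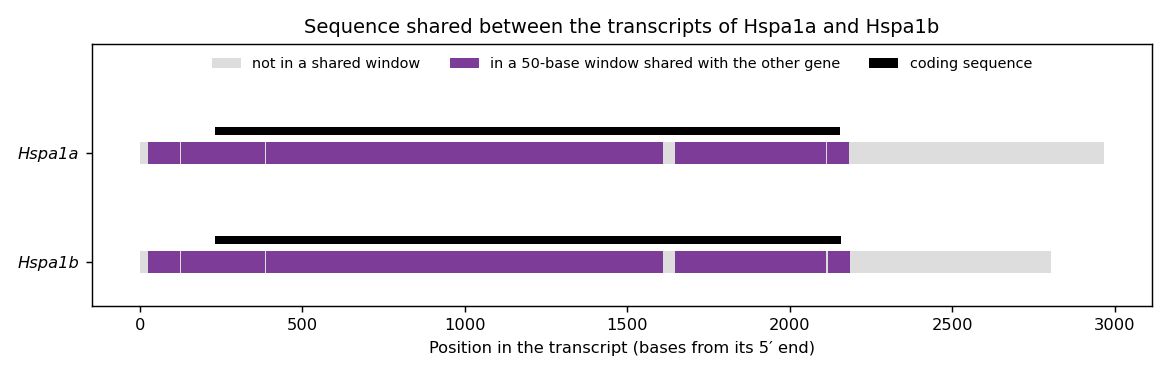
Transcripts of Hspa1a (2967 bases) and Hspa1b (2803 bases) drawn to scale from the 5′ end, with the coding sequence as a black bar and positions covered by a 50-base window found in the other gene in purple. Nearly all of the coding sequence is shared, and the grey ends after it are particular to each gene.

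Hspa1a had few reads in every library. It had 10, 9, 12 and 20 reads in Estrogen 1 to 4, against 4, 6, 11 and 11 reads in Vehicle 1 to 4. In scaled units these were 0.340, 0.254, 0.348 and 0.634 CPM in Estrogen 1 to 4, against 0.1204, 0.156, 0.310 and 0.330 CPM in Vehicle 1 to 4. Estrogen 4 was the highest library and Vehicle 1 and Vehicle 2 the lowest, while Estrogen 2 lay below Vehicle 3 and Vehicle 4, so the groups overlapped. The fitted difference was 0.77 ± 0.45 on the log2 scale (SE), a 1.71-fold higher level in Estrogen with a 95% interval from 0.844-fold to 3.46-fold. It did not pass the test (edgeR quasi-likelihood test, adjusted p = 0.860 over all genes tested), and with 1 library left out it ran from 0.46 (without Estrogen 4) to 0.995 (without Vehicle 4).

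Hspa1b, the near-identical copy, carried most of the reads of the pair. It had 3.23, 1.72, 2.47 and 3.23 CPM in Estrogen 1 to 4, against 3.61, 1.98, 2.36 and 2.01 CPM in Vehicle 1 to 4. The highest library was Vehicle 1 and the lowest Estrogen 2, and the groups overlapped across most of their range. The difference was 0.10 ± 0.29 (SE; 95% interval −0.55 to 0.74, edgeR adjusted p = 0.934). Per Hspa1a read there were 5.1 to 9.5 Hspa1b reads in Estrogen and 6.09 to 30 in Vehicle.

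Because reads can pass between these genes, their counts were also added into 1 row. The summed pair had 3.57, 1.98, 2.82 and 3.87 CPM in Estrogen 1 to 4, against 3.73, 2.13, 2.67 and 2.34 CPM in Vehicle 1 to 4. The means were 3.06 ± 0.846 CPM in Estrogen and 2.72 ± 0.712 CPM in Vehicle (SD, n = 4 each). Estrogen 4 and Vehicle 1 were highest and Estrogen 2 was lowest, so the spread within each group exceeded the difference between them. The fitted difference was 0.17 ± 0.27 (SE; 95% interval −0.44 to 0.78, edgeR adjusted p = 0.887), which leaves folds from 0.736 to 1.72 within the interval.

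Hspa8 encodes HSC70, the constitutive cytosolic HSP70 that also drives clathrin uncoating and chaperone-mediated autophagy (chr9:40800984-40810087, plus strand). It had 1051, 876, 986 and 971 CPM in Estrogen 1 to 4, against 1196, 1191, 1058 and 862 CPM in Vehicle 1 to 4. The first 3 Vehicle libraries lay above every Estrogen library and Vehicle 4 lay below them all, so the groups overlapped through 1 library. The difference was −0.15 ± 0.13 (SE; 95% interval −0.45 to 0.15, edgeR adjusted p = 0.860), and with 1 library left out it ran from −0.24 (without Vehicle 4) to −0.08 (without Vehicle 1), without a call. Hspa8 shared 39.4% of its 50-base windows with other annotated genes. The 7 copies elsewhere in the genome that share at least 10% of their own windows with it held 0.163 to 0.221% as many reads as Hspa8, and Snord14c, Snord14d and Snord14e lie within the gene on its strand.

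Hspa2, an HSP70 best known in mouse for its need in male meiosis, was well detected in these marrow cells (chr12:76404176-76406938, plus strand). It had 67.6, 47.2, 64.1 and 48.6 CPM in Estrogen 1 to 4, against 77.3, 61.9, 74.9 and 58.6 CPM in Vehicle 1 to 4. Estrogen 2 and Estrogen 4 lay below every Vehicle library, and Estrogen 1 and Estrogen 3 lay between the low and the high Vehicle libraries. The means were 56.9 ± 10.5 CPM in Estrogen and 68.2 ± 9.27 CPM in Vehicle (SD, n = 4 each). The difference of −0.26 ± 0.15 (SE; 95% interval −0.59 to 0.07) had the smallest p of the 10 genes and did not pass (edgeR adjusted p = 0.860).

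Hspa9 encodes mortalin, the HSP70 of the mitochondrial matrix that pulls imported proteins through the inner membrane (chr18:34937414-34954357, minus strand). It had 188, 184, 172 and 194 CPM in Estrogen 1 to 4, against 182, 188, 175 and 169 CPM in Vehicle 1 to 4. The coefficient of variation over the 8 libraries was 4.83%, and the groups overlapped. The difference was 0.05 ± 0.08 (SE; 95% interval −0.13 to 0.22, edgeR adjusted p = 0.886), so folds outside 0.916 to 1.17 lay beyond the interval.

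Hspa4 and Hspa4l belong to the HSP110 group, large relatives of HSP70 that serve as its exchange factors. Hspa4 (chr11:53259814-53300457, minus strand) had 226, 204, 210 and 228 CPM in Estrogen 1 to 4, against 246, 229, 229 and 220 CPM in Vehicle 1 to 4. Vehicle 1 was the highest and Estrogen 2 the lowest, and Estrogen 1 and Estrogen 4 lay within the Vehicle range. The difference was −0.09 ± 0.08 (SE; 95% interval −0.27 to 0.10, edgeR adjusted p = 0.860). Hspa4l (chr3:40744495-40796103, plus strand) had 39.2, 46.4, 42.4 and 43.3 CPM in Estrogen 1 to 4, against 37.2, 39.3, 37.1 and 51.8 CPM in Vehicle 1 to 4. Vehicle 4 was far above the other Vehicle libraries, and of the other 3 only Vehicle 2 reached the Estrogen range. The difference was 0.05 ± 0.12 (SE; 95% interval −0.23 to 0.33, edgeR adjusted p = 0.921), and 0.18 without Vehicle 4.

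Hsph1, or HSP105, is the third HSP110 member and is itself heat inducible (chr5:149614287-149636376, minus strand). It had 55.3, 52.9, 56.2 and 58.7 CPM in Estrogen 1 to 4, against 55.0, 60.7, 56.3 and 57.2 CPM in Vehicle 1 to 4. This was the steadiest of the 10 genes, with a coefficient of variation of 4.21% over the 8 libraries, and the groups overlapped. The difference was −0.04 ± 0.08 (SE; 95% interval −0.21 to 0.13, edgeR adjusted p = 0.904), and its sign turned with scaling by library totals. The heat shock element of its promoter, shown for comparison with that of the Hspa1a pair, lay 33 bases before one RefSeq start site and 54 bases before another (GRCm38.p6, chr5:149636351-149636380, minus strand, element in capitals):
Hsph1: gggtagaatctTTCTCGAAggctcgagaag
Its units stand back to back, while those of Hspa1a and Hspa1b face each other.

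Hsf1 is the main activator of the heat shock response, and Hsf2 a related factor that can form mixed trimers with HSF1. Hsf1 (chr15:76477422-76501913, plus strand) had 56.4, 60.4, 65.3 and 63.6 CPM in Estrogen 1 to 4, against 49.0, 55.3, 64.2 and 66.4 CPM in Vehicle 1 to 4. The Estrogen libraries lay inside the Vehicle range. The difference was 0.06 ± 0.11 (SE; 95% interval −0.18 to 0.31, edgeR adjusted p = 0.893), which leaves folds from 0.880 to 1.24 within the interval. Hsf2 (chr10:57486385-57513135, plus strand) had 11.1, 11.9, 11.5 and 10.7 CPM in Estrogen 1 to 4, against 10.99, 9.23, 11.03 and 11.2 CPM in Vehicle 1 to 4. Vehicle 2 alone was low, and the other 7 libraries lay close together. The difference was 0.09 ± 0.12 (SE; 95% interval −0.18 to 0.36, edgeR adjusted p = 0.870).

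**Figure D2:**
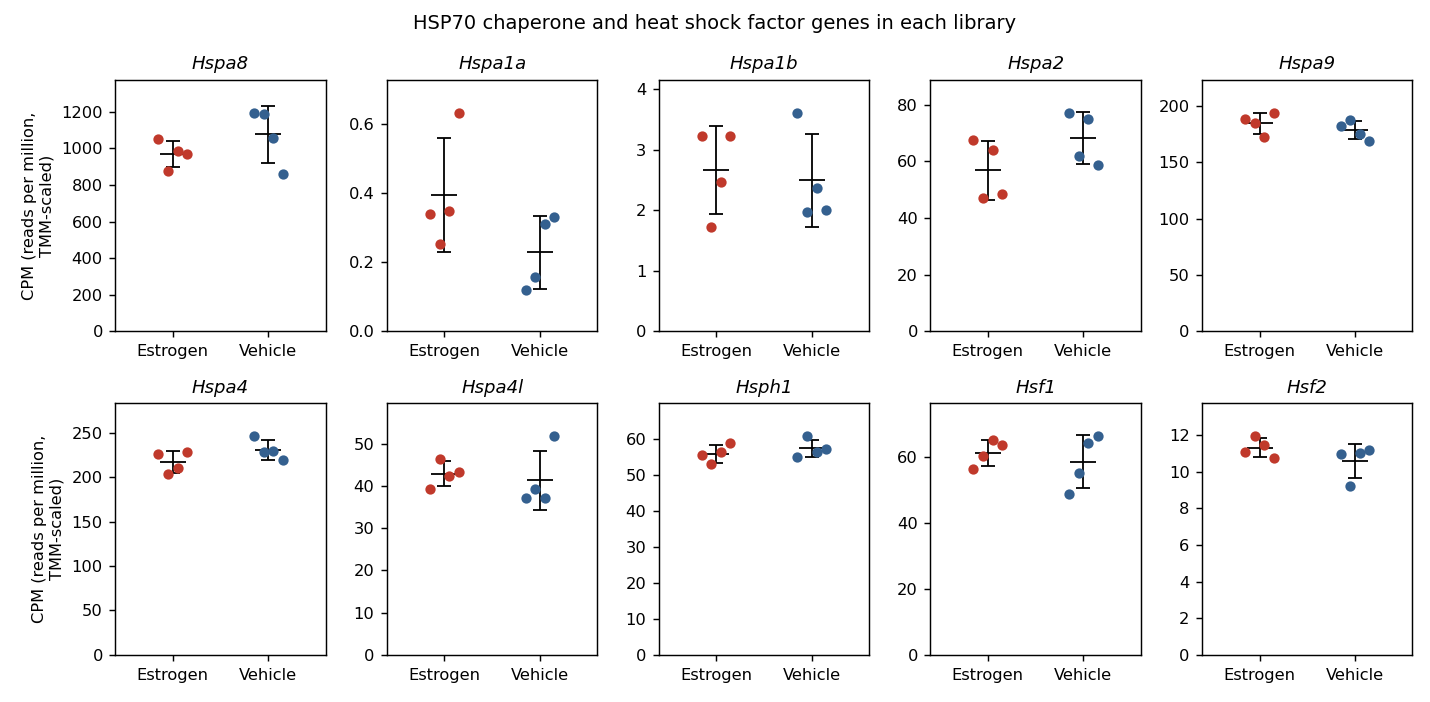
Level of each of the 10 genes in CPM, with 1 point per library, Estrogen (red) left of Vehicle (blue), and the mean ± SD of 4 libraries in black. Each vertical axis starts at 0 and has its own scale, and in every panel the points of the groups overlap.

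Across the 10 genes, none was called in either direction at an edgeR adjusted p under 0.05, as 0% of the 15175 genes tested were. At an unadjusted p under 0.05 the members counted 0, against 3.53% of all genes tested (535 genes, 344 higher and 191 lower in Estrogen). With 1 library left out that number of genes ran from 227 (without Estrogen 2) to 2156 (without Vehicle 4), and was 1743 without Estrogen 1, where Hspa2 was the 1 member under it (−0.36, edgeR adjusted p = 0.433). The groups did not overlap in CPM for 0 members, against 1.67% of all genes tested (253 genes). DESeq2 called 1 gene in the whole table (Cd8b1, lower in Estrogen) and limma-voom called 0, with no member called by either. By fitted values 6 members were higher and 4 lower in Estrogen, with a median difference of 0.05, beside −0.01 over all genes tested. Scaling by library totals turned Hsph1 and made it 7 higher and 3 lower, while the median over all genes moved to 0.05. Without Vehicle 3 the members' differences ran from −0.20 to 0.97, with 0 called and a lowest edgeR adjusted p of 0.968.

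**Figure D3:**
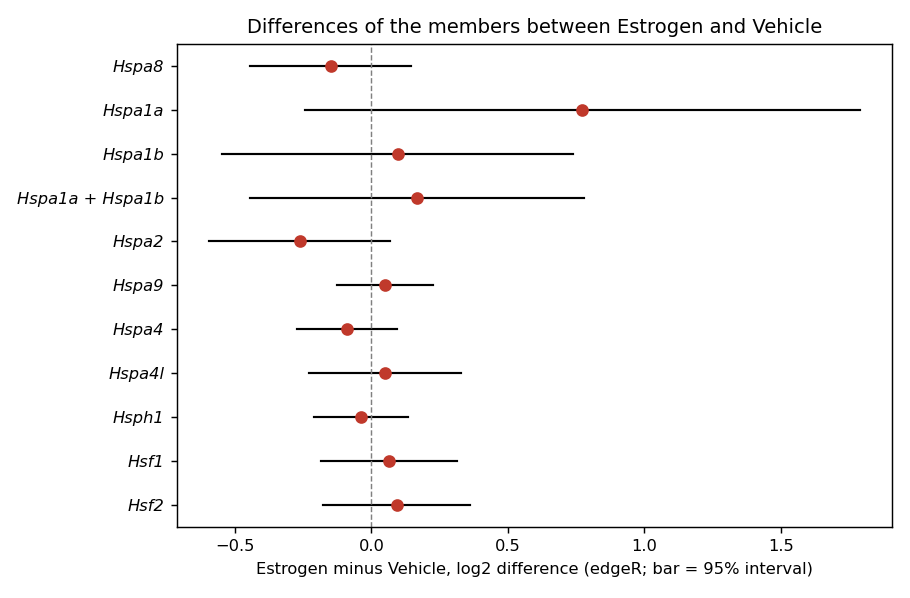
Fitted log2 difference of Estrogen minus Vehicle for each of the 10 genes and for the summed Hspa1a and Hspa1b counts, with 95% intervals from edgeR. Every interval includes 0, and the widest belongs to Hspa1a, the gene with the fewest reads.

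The intervals show what each gene's depth and spread could resolve. They were narrowest for Hsph1, Hspa9 and Hspa4, whose folds had intervals of 0.864 to 1.10, 0.916 to 1.17 and 0.828 to 1.07. Hspa1a, with 4 to 20 reads a library, left a range from 0.844-fold to 3.46-fold. A change of 2-fold in either direction lay outside the interval of each member except Hspa1a, whose interval held a 2-fold rise but not a 2-fold fall. The coefficient of variation over the 8 libraries ran from 4.21% for Hsph1 to 27.1% for Hspa1b and 50.1% for Hspa1a.

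Levels between genes were compared per kilobase of annotated exon. Hspa8 was highest, at 238 ± 29.4 CPM per kb (SD over 8 libraries), and exceeded the next gene, Hspa9, 4.76 to 6.58 times within a library. Hspa9 at 42.1 ± 2.03 and Hspa4 at 40.5 ± 2.34 CPM per kb overlapped, with Hspa9 the higher in 5 of 8 libraries. Hspa2 followed at 23.6 ± 4.15 CPM per kb. Hsf1 at 8.46 ± 0.854 and Hsph1 at 7.78 ± 0.327 CPM per kb overlapped as well, with Hsf1 the higher in 6 of 8 libraries. Hspa4l came next at 3.57 ± 0.428 CPM per kb, followed by Hsf2 at 1.14 ± 0.0819 and Hspa1b at 0.919 ± 0.249 CPM per kb, which overlapped. Hspa1a was lowest at 0.105 ± 0.0526 CPM per kb.

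The constitutive Hspa8 was first and the inducible Hspa1a last in every library. Per kilobase, Hspa8 exceeded Hspa1b, the better detected inducible gene, 196 to 393 times. Between the factors, Hsf1 exceeded Hsf2 6.04 to 8.11 times per kilobase. With the length of the transcript that holds the longest coding sequence in place of all exons (an option added once the values were known), Hspa2 and Hsf1 changed places and the other 8 genes kept their ranks. Hspa8 then exceeded Hspa1b 352 to 706 times. By that length Hspa9 no longer overlapped Hspa4, nor Hsf1 Hsph1, nor Hsf2 Hspa1b, while Hsf1 overlapped Hspa2 and Hspa4l overlapped Hsf2. Reads that fit both Hspa1a and Hspa1b may have been dropped or shared out in counting, so the levels of this pair are the least certain of the order.

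**Figure D4:**
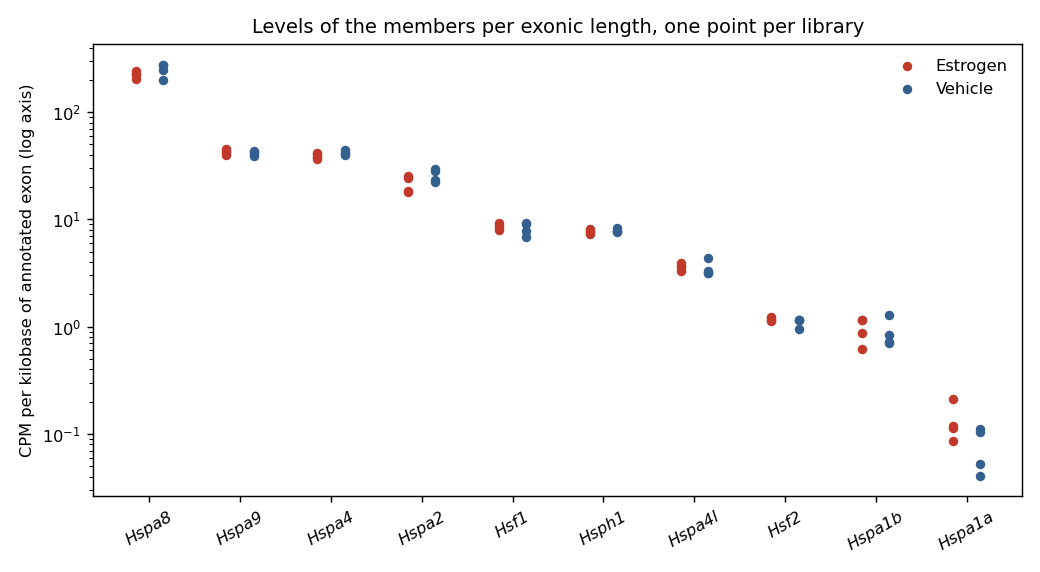
Level of each gene in CPM per kilobase of annotated exon on a log axis, ordered by the mean, with 1 point per library and Estrogen (red) left of Vehicle (blue). Hspa8 stands apart at the top and Hspa1a at the bottom in all 8 libraries.

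Within the family, the share of HSP70 reads that falls on each gene does not depend on how libraries are scaled. The 8 chaperone genes summed to 1531 ± 90.1 CPM in Estrogen and 1656 ± 172 CPM in Vehicle (SD, n = 4 each). Hspa8 took 64.4, 62.0, 64.3 and 62.7% of these reads in Estrogen 1 to 4, against 66.5, 67.2, 64.8 and 60.7% in Vehicle 1 to 4. As for its level, the first 3 Vehicle libraries were above every Estrogen library and Vehicle 4 below them all. The difference of means was −1.45 percentage points (exact two-sided permutation test on absolute differences, p = 0.343, where 4 against 4 cannot go below 0.0286). Without Vehicle 4 it was −2.83 points with p = 0.0286 in the exact test on absolute differences, the smallest that 4 against 3 can give. Vehicle 4 was the library through which the groups overlapped, so this unadjusted p is no separate support. With each other library left out, p in that test ran from 0.343 to 0.686, so this 1 library decided the side of the threshold.

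The other shares were smaller. Hspa4 took 14.2 ± 0.481% in Estrogen and 14.02 ± 1.06% in Vehicle, and Hspa9 took 12.1 ± 0.86% in Estrogen and 10.8 ± 0.747% in Vehicle (SD, n = 4 each). Hspa2, Hspa4l and Hsph1 each took between 2.07 and 4.59% in any library. Hspa1a and Hspa1b, the inducible genes, took at most 0.041% and 0.209% of HSP70 reads in any library.

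Of the 10 members, Hspa2 followed the summed level of 8 B lineage genes most closely. This relation was examined after the values were seen and computed for all 10 members. The summed level of the 8 B lineage genes was 9912, 5687, 8350 and 5666 CPM in Estrogen 1 to 4, against 11548, 9778, 9932 and 6886 CPM in Vehicle 1 to 4. From Vehicle 1 to Vehicle 4, Cd79a fell from 3146 to 1496, Cd79b from 2976 to 1475 and Ms4a1 from 1849 to 619 CPM. Between these libraries Pax5 went from 1099 to 1073 and Ebf1 from 475 to 476 CPM. The genes of the list thus moved unequally, and their sum is no measure of B cell number. Hspa2 followed this sum over the 8 libraries (Pearson's r = 0.95, exact permutation p = 0.00047, adjusted p = 0.0047; Spearman's rho = 0.95, p = 0.0011, adjusted p = 0.0114). Its r was 0.82 without Estrogen 2 and Estrogen 4 and 0.93 for deviations from the group means, so it was also seen within the groups. With library totals in place of TMM it was r = 0.92 (exact permutation adjusted p = 0.0134). The libraries with the lowest Hspa2, Estrogen 2 and Estrogen 4, were those with the lowest B lineage sum, and the highest, Vehicle 1, had the highest sum.

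Hspa8 ran the same way (r = 0.84, exact permutation p = 0.012, adjusted p = 0.0601; rho = 0.83, adjusted p = 0.0513), without passing the adjustment. Hspa4l ran the opposite way (r = −0.79, exact permutation p = 0.0209, adjusted p = 0.0698; rho = −0.88, adjusted p = 0.0362), passing by rank only. With library totals, r was 0.71 for Hspa8 (exact permutation adjusted p = 0.101) and −0.86 for Hspa4l (exact permutation adjusted p = 0.0415). Without Estrogen 2 and Estrogen 4, r was 0.92 for Hspa8 and −0.95 for Hspa4l. With TMM the other 7 members had adjusted p of 0.175 or more for r, and with library totals of 0.0891 or more. The B lineage genes were themselves lower in Estrogen by fitted values in 8 of 8 cases (7 with library totals), with a median of −0.24 and 0 called or at an unadjusted p under 0.05 by edgeR. With 1 library left out, 6 (without Estrogen 2) to 8 were lower. The median then ran from −0.30 (without Estrogen 1) to −0.18 (without Estrogen 2). The part of cell content in the differences of Hspa2 and Hspa8 was not tested.

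Of the markers of other marrow cells, edgeR called 0, while DESeq2 and voom with sample weights each called Cd8b1, lower in Estrogen. Of 8 monocyte and macrophage genes, 4 were at an unadjusted p under 0.05 by edgeR, beside 3.53% of all genes tested: C1qa (0.86), C1qc (0.68) and Cd68 (0.48) were higher and Ly6c2 (−0.62) lower in Estrogen by log2 difference. Of 5 genes of plasmacytoid dendritic cells 1 was, Siglech (0.66), in a list with 3 higher and 2 lower by fitted values. Of 7 tested T and NK cell genes 3 were, Cd8b1 (−1.03), Thy1 (−0.95) and Trbc2 (−1.11), in a list with 2 higher and 5 lower. The 2 higher were Cd8a (0.64) and Cd4 (0.12). Thy1 and Trbc2 were low, with at most 1.79 and 1.11 CPM in any library. The summed levels overlapped between the groups for monocytes and macrophages (1567 to 2942 CPM in Estrogen, 1470 to 2468 CPM in Vehicle), plasmacytoid dendritic cells (1549 to 2324 CPM in Estrogen, 1350 to 1724 CPM in Vehicle) and T and NK cells (128 to 244 CPM in Estrogen, 109 to 185 CPM in Vehicle). The T and NK cell sum came mostly from Cd4 (40.3 to 100 CPM over the libraries) and Cd8a (29.0 to 133 CPM). Cd3e and Cd3g reached at most 0.546 and 0.728 CPM in any library, and Ncr1 was too low to be tested. That sum is therefore no measure of T and NK cells. The part of these summed levels in the members' values was not tested.

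**Figure D5:**
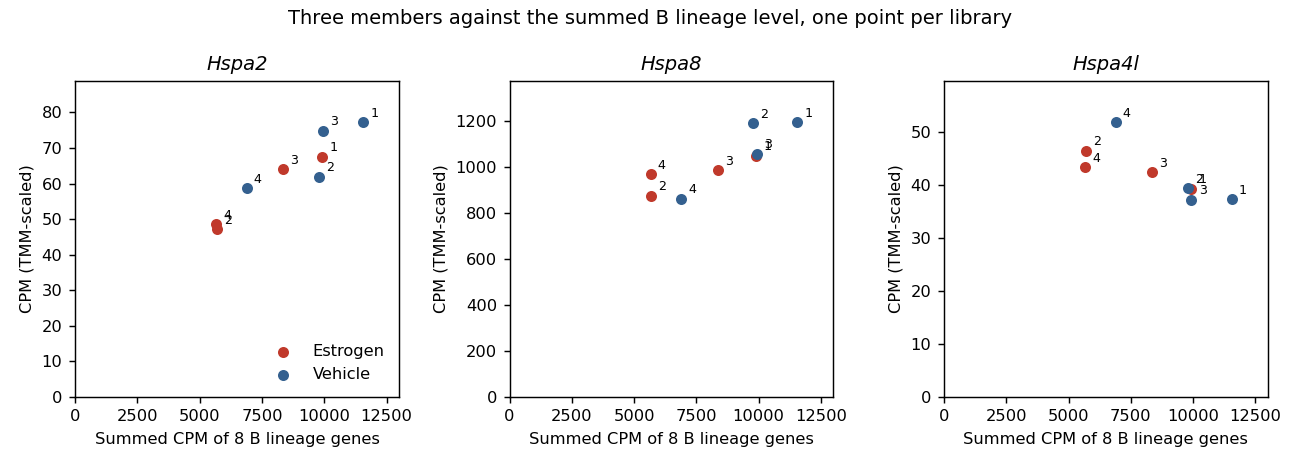
Levels of Hspa2, Hspa8 and Hspa4l in CPM against the summed CPM of 8 B lineage genes, with 1 numbered point per library (Estrogen red, Vehicle blue) and axes from 0. Hspa2 and Hspa8 are higher, and Hspa4l lower, in the libraries with a higher B lineage sum.

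Between members, 45 pairs were compared over the 8 libraries, and 24 had a positive r. None passed adjustment over the 45 pairs (lowest adjusted p = 0.118 by exact permutation, 5 pairs at an unadjusted p under 0.05). With TMM scaling the closest relation was the opposite course of Hspa4l and Hspa8 (r = −0.89, exact permutation p = 0.0027, adjusted p = 0.118; rho = −0.88, adjusted p = 0.163). Its r was −0.73 without Vehicle 4 and Estrogen 2. Hsph1 and Hsf2 had r = −0.86 (exact permutation adjusted p = 0.118; rho = −0.64, adjusted p = 0.470), which became −0.41 without Vehicle 2 and Estrogen 2. The other 3 pairs were Hspa4 with Hspa8 (r = 0.76, rho = 0.81), Hspa1a with Hsf1 (r = 0.76, rho = 0.62) and Hspa8 with Hsf1 (r = −0.75, rho = −0.71), each with an adjusted p of 0.286 for r by exact permutation. With library totals the closest pair was Hspa8 with Hsf2 (r = −0.88, exact permutation adjusted p = 0.105), Hspa4l with Hspa8 had r = −0.84, and Hsph1 with Hsf2 had r = −0.09. The libraries differed in depth and in the levels of cell type markers, whose part in these relations was not tested.

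The remaining HSP70 superfamily and heat shock factor genes were read from a list of 10, of which 9 were found by symbol and 7 were tested. None was called, 2 were at an unadjusted p under 0.05 by edgeR (3.53% of all genes tested) and 1 had groups that did not overlap (1.67% of all genes tested). By edgeR, 6 of 7 were higher in Estrogen by fitted values (7 with library totals), and the median difference was 0.20, with a range from 0.14 (without Estrogen 3) to 0.40 (without Vehicle 4) when 1 library was left out. The factor Hsf3 had 0 reads in every library, and Hsf5 was too low to be tested. Hyou1, an HSP110-like exchange factor of the endoplasmic reticulum, had 212, 251, 217 and 248 CPM in Estrogen 1 to 4, against 171, 186, 171 and 208 CPM in Vehicle 1 to 4. Every Estrogen library lay above every Vehicle library, by a narrow margin, with a difference of 0.33 ± 0.10 (SE, edgeR adjusted p = 0.860). Hspa13, an HSP70 of microsomes, had 37.4, 45.4, 35.0 and 50.1 CPM in Estrogen 1 to 4, against 26.7, 30.2, 25.7 and 36.3 CPM in Vehicle 1 to 4. Only Vehicle 4 reached the Estrogen range, and the difference was 0.50 ± 0.15 (SE, edgeR adjusted p = 0.860). Hspa5, or BiP, the main HSP70 of the endoplasmic reticulum, differed by 0.15 ± 0.10 and Hsf4 by 0.52 ± 0.67 (SE).

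Among 14 exchange factors and regulators of HSP70, all tested, 5 were higher and 9 lower in Estrogen by fitted values, with a median of −0.04, 0 called and 2 at an unadjusted p under 0.05 by edgeR (3.53% of all genes tested). With library totals 8 were higher and 6 lower, with a median of 0.01, and with 1 library left out the median ran from −0.08 (without Estrogen 1) to 0.0049 (without Vehicle 1). Bag2, a BAG protein that inhibits the CHIP ubiquitin ligase, had 3.88, 3.64, 4.07 and 4.82 CPM in Estrogen 1 to 4, against 2.95, 2.44, 2.62 and 3.18 CPM in Vehicle 1 to 4. This was the 1 gene of the list whose groups did not overlap (1.67% of all genes tested), and the difference was 0.55 ± 0.18 (SE, edgeR adjusted p = 0.860). Bag3, which links HSP70 to selective autophagy, had 2.38, 6.10, 3.48 and 5.32 CPM in Estrogen 1 to 4, against 1.08, 2.47, 2.45 and 2.52 CPM in Vehicle 1 to 4. Estrogen 1 fell inside the Vehicle range, and the difference was 1.02 ± 0.36 (SE, edgeR adjusted p = 0.860). Hikeshi, the carrier that brings HSP70 into the nucleus, differed by −0.28 ± 0.19 and Hspbp1, an exchange factor, by −0.17 ± 0.13 (SE).

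Of 16 HSF1 target genes outside the 10 members, 14 were tested and Hspb1 and Cryab were too low. By fitted values 2 were higher and 12 lower in Estrogen, with a median of −0.10 beside −0.01 over all genes tested, 0 called and 0 at an unadjusted p under 0.05 by edgeR. With library totals the split was 5 higher and 9 lower, with a median of −0.05. With 1 library left out the median ran from −0.17 (without Vehicle 4) to −0.02 (without Vehicle 1, 4 higher and 10 lower). Cacybp, a partner of the SIAH1 ubiquitin ligase, had the smallest p of the list (−0.25 ± 0.16, SE, edgeR adjusted p = 0.860). Dnaja1, a J-domain partner of HSP70, differed by −0.17 ± 0.12, Hspe1, the mitochondrial HSP10, by −0.18 ± 0.13, and Ier5, an immediate early gene, by −0.19 ± 0.14 (SE).

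Of 6 genes whose products act on HSF1, 3 were higher and 3 lower in Estrogen by fitted values (4 and 2 with library totals), with a median of 0.01 (−0.03 without Vehicle 3 to 0.03 without Estrogen 3) and 0 called or at an unadjusted p under 0.05 by edgeR. Daxx, a nuclear protein that binds HSF1 trimers, had 130, 81.9, 126 and 89.1 CPM in Estrogen 1 to 4, against 161, 166, 137 and 105 CPM in Vehicle 1 to 4. Only Vehicle 4 fell within the Estrogen range, and the difference was −0.41 ± 0.19 (SE, edgeR adjusted p = 0.860). Hsbp1, which binds the HSF1 trimer, differed by −0.23 ± 0.14 and Ep300, the acetyltransferase p300, by 0.20 ± 0.21 (SE).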

How the data were processed

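RNA sequencing libraries of bone marrow B cells were compared between 4 Estrogen and 4 Vehicle samples, grouped by the treatment label. The authors deposited raw read counts per Ensembl gene, 1 column per library, without normalization. CASAVA, Bowtie 0.12.2 and mm10 are listed in the submitters' processing notes. Not given in the sources used here are the counter, the annotation, the strand setting and how reads with several matches were handled, and such reads can move counts between near-identical genes.

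Symbols and coordinates came from GENCODE mouse release M21 on GRCm38, with 46488 of 46983 identifiers matched (98.9%). Counts were fitted with edgeR 4.0.16 in R 4.3.3 (filterByExpr, TMM, robust quasi-likelihood F-test, two-sided) over 15175 genes holding 99.9% of counts, with Benjamini-Hochberg adjustment over these genes called under 0.05. Groups are given as mean ± SD, and differences are fitted log2 values ± SE. Correlations used log2 CPM with a prior count of 2 and all 40320 orders of the libraries, by SciPy 1.17.1. Promoters came from RefSeq (GRCm38.p6), with entries of 7 of 10 members used, and 250 bases before each start were searched. Depth was 30181834 to 39088597 reads. The median 95% interval was ± 0.40 (log2), which also holds the spread between the 4 libraries of each group.

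The 10 members and the gene lists were chosen with earlier results of these data known. All members are named, and from each list up to 4 genes with the smallest p, except that some list genes are not reported here by name. The B lineage relation, the transcript length order and Cd8b1, Tgm2 and the named marker genes were chosen after values were seen. Alternatives were DESeq2 1.42.0 (size factors, Wald test), library totals, no filter or 1 CPM in 4 libraries, limma 3.58.1 voom with and without sample weights, a replicate block, cytosolic members only for the share, and each library left out. Figures were drawn with matplotlib 3.10.9 in Python 3.11.15.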

Additional observations from a re-analysis of the deposited data

Results flagged for a closer look

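In 56 groups of 4 libraries examined over the named genes and the summed values, 4 had a library whose gap to its nearest neighbour exceeded Dixon's 95% critical ratio to the range, and chance alone flags about 1 in 20 groups. Hspa4l had 51.8 CPM in Vehicle 4, against 37.1 to 39.3 CPM in the other Vehicle libraries. Hsf2 had 9.23 CPM in Vehicle 2, against 10.99 to 11.2 CPM in the others. Hsf4 had 1.14 CPM in Vehicle 4, against 0.197 to 0.338 CPM in the others. Bag3 had 1.08 CPM in Vehicle 1, against 2.45 to 2.52 CPM in the others. Vehicle 4, high for Hspa4l and Hsf4, also had the lowest B lineage sum of the Vehicle libraries (6886 CPM), and its part in these values was not tested.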

How the results depend on the processing

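No member was called in any of the 16 alternative settings, and the members' adjusted p ran from 0.238 to 1.00 over them. At an unadjusted p under 0.05 there were 2 members with voom sample weights (Hspa1a and Hspa8), 1 with the block and 1 without Estrogen 1 (both Hspa2), and 0 in the other settings. Of 159 member values under alternatives, 5 changed sign. Hspa1b ran from −0.0125 (without Estrogen 1) to 0.35 with 1 library left out, and was −0.0073 without Estrogen 4. Hsph1 ran from −0.0594 to 0.0023 (without Vehicle 2) with 1 library left out, and was 0.0125 with library totals. Hspa9 was −0.0307 with voom sample weights. The summed Hspa1a and Hspa1b difference ran from 0.04 to 0.36 with 1 library left out. The difference in the Hspa8 share ran from −2.83 to −0.646 percentage points with 1 library left out, and was −0.607 (exact permutation p = 0.743) among cytosolic members only. The cause of these changes was not tested. The number of genes called was 1 with DESeq2 (Cd8b1), 1 with voom sample weights (Cd8b1) and 0 in each fit with 1 library left out. A replicate block on the shared numbers called 1 gene (Tgm2, higher in Estrogen), with 2175 genes at an unadjusted p under 0.05, against 535 without it, and no member, Hspa2 having an adjusted p of 0.238. Deviations of same-numbered libraries correlated at 0.67, −0.13, 0.08 and 0.55 for numbers 1 to 4, and 2 of the 4 Estrogen libraries correlated best with the Vehicle library of their own number, so the numbers were not taken as pairs. Vehicle 3 and Estrogen 3 also differed in Xist (2.39 and 759 CPM). With the filter of 1 CPM, Hspa1a could not be tested and the other 9 members were. Hspa1a, at 4 to 20 reads a library, is the member that depth limits most.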
